A study of Danio rerio with 5 samples.

Results

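The 10 genes described here are apolipoproteins and other genes of the liver and blood plasma of zebrafish: apoea, apoeb, apoa1a and apom, the haem carrier hpxa, the clotting genes fgg, serpinc1 and kng1, the enzyme gene tat and the protease inhibitor gene a2m3a. They were found by their symbol in the annotation of the array platform and make up 10 of 8793 genes that a probe set names alone. A probe set is the group of short probes that measures 1 transcript. The 10 genes have 11 probe sets, since a2m3a has 2, and all 11 reached the level filter on 1 array or more; the filter, 7.02, is the median over all values of the table.

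Young adult wild-type zebrafish of the AB line were kept for 24 h, unfed, with benzene, toluene, formaldehyde or a mix of these 3 compounds, called the BTF mix, each made up in the solvent DMSO, or with DMSO. Each condition had 1 Affymetrix 3' expression array of total RNA, so the study has 5 arrays, no replicate, no test and no spread between fish. All 5 samples carry the same entry for sex, which names neither males nor females, so it does not show whether the arrays were matched for sex. The sources used here give no dose, no tissue and no number of fish per array. Differences are log2 values of an exposed array minus the DMSO array, so that 1 means a doubling, and a gene is counted as higher or lower when it is at least 2-fold apart.

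Apolipoproteins wrap lipids into particles that travel in blood. Apolipoprotein E is the ligand by which cells take up such particles through receptors of the LDL receptor family, and besides the liver it is made by macrophages and by microglia, where apoeb is a usual zebrafish marker. Apolipoprotein A1 is the main protein of high-density lipoprotein. The clotting proteins are made in the liver as well and circulate until fibrinogen is cut to fibrin, while antithrombin holds the clotting proteases in check. The enzyme encoded by tat stays inside the hepatocyte, so its gene is a marker of liver metabolism and does not encode a plasma protein.

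The arrays for benzene, toluene, formaldehyde and DMSO had correlations across probe sets between 0.979 and 0.992, and the BTF mix array had 0.692 to 0.739 with these 4. All 12 oocyte markers past the level filter were at least 2-fold lower with the BTF mix than with DMSO, with a median of -6.44, as were all 4 markers of the liver under oestrogen, with a median of -5.60. On the mix array 11 of the 13 measured oocyte markers lay below the level filter, against 1 on the DMSO array. In whole-animal or tissue RNA, fewer cells of a type and less RNA per cell cannot be told apart. Nor can a difference in sex or ovary content of the mix sample be told apart from the exposure, in any value of that array. Hepatocyte RNA was present on all arrays: the fatty acid-binding protein gene fabp10a, a defining hepatocyte marker, had levels of 12.29 with benzene, 12.59 with toluene, 13.29 with formaldehyde, 13.69 with the BTF mix and 12.61 with DMSO, and none of the 10 measured hepatocyte markers lay below 7.02 on any array.

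**Figure D1:**
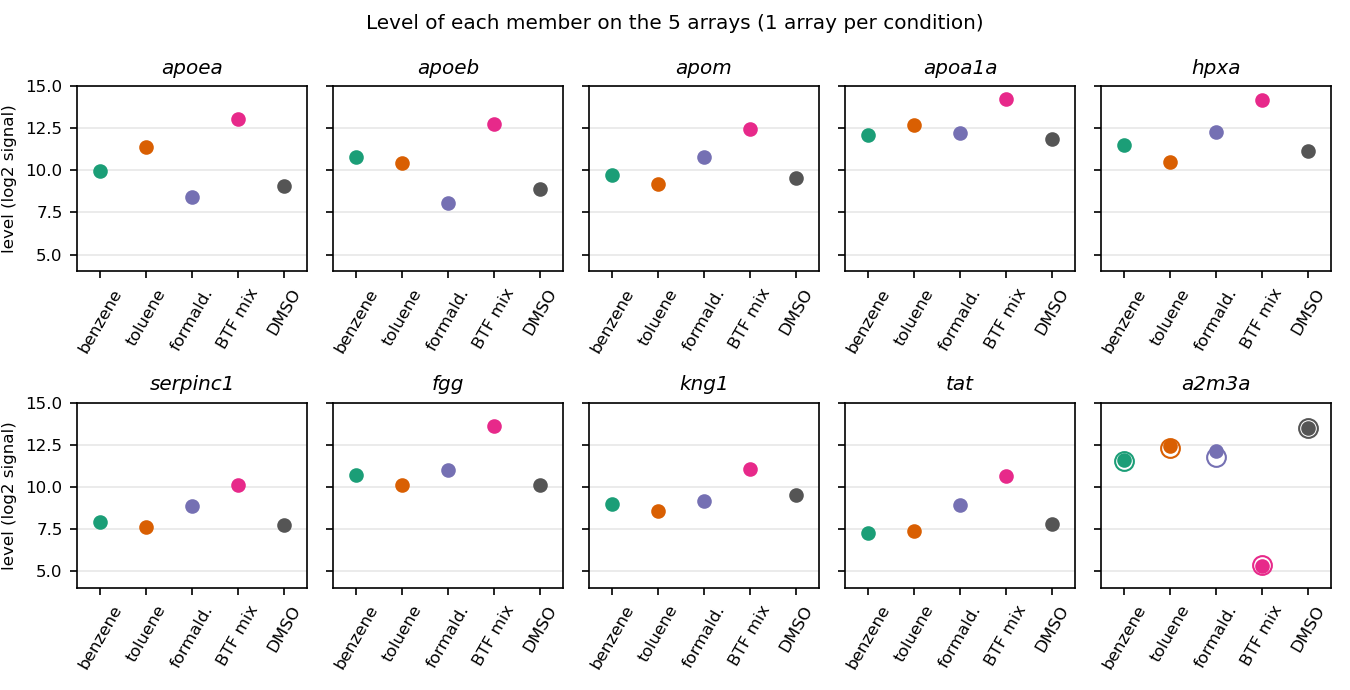
Level of each of the 10 genes, in log2 signal, on the benzene, toluene, formaldehyde, BTF mix and DMSO arrays; each point is 1 array and open circles are the other probe set of a2m3a. The BTF mix array holds the highest point for 9 genes and the lowest for a2m3a.

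Among the apolipoprotein E genes, apoeb was at least 2-fold higher with both aromatic compounds and apoea with toluene only. With formaldehyde both lay below DMSO by less than 2-fold, where apoea turned to 0.12 when each array was centred on the markers of tissues other than the liver, a scaling chosen after seeing the data. The gene apoea had a level of 9.94 with benzene, 11.36 with toluene, 8.40 with formaldehyde, 13.04 with the BTF mix and 9.09 with DMSO. The toluene array stood apart from the other single compounds: its difference of 2.27, a 4.84-fold higher signal, was the 16th largest increase of 9716 probe sets. Benzene lay at 0.85, which was 0.29 on the markers of other tissues and 0.0548 against the mean of toluene and formaldehyde. Formaldehyde lay at -0.69, so that toluene was 2.96 above formaldehyde, on a log2 scale.

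The gene apoeb had a level of 10.80 with benzene, 10.43 with toluene, 8.03 with formaldehyde, 12.74 with the BTF mix and 8.90 with DMSO. Its order differs from that of apoea, with benzene and not toluene highest among the single compounds. The differences to DMSO were 1.90 with benzene and 1.53 with toluene, which are 3.73-fold and 2.89-fold, and -0.86 with formaldehyde.

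The other apolipoproteins of the set did not share that pattern. The gene apoa1a had a level of 12.07 with benzene, 12.68 with toluene, 12.23 with formaldehyde, 14.22 with the BTF mix and 11.87 with DMSO. No single compound lay 2-fold from DMSO as deposited. Toluene came nearest with a difference of 0.81 (1.11 on the hepatocyte markers), while benzene lay at 0.20 (-0.36 on the markers of other tissues) and formaldehyde at 0.35 (-0.23 on the hepatocyte markers and 1.16 on those of other tissues). The gene apom, whose protein rides on high-density lipoprotein and carries sphingosine-1-phosphate in mammals, had a level of 9.71 with benzene, 9.16 with toluene, 10.78 with formaldehyde, 12.42 with the BTF mix and 9.55 with DMSO. Formaldehyde was the high single compound here, with a difference of 1.23, or 2.34-fold, and toluene was the low one, at -0.39.

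In the order of genes along the chromosomes of the RefSeq assembly GRCz12tu, apoeb sits in a cluster of apolipoprotein genes and apoea next to 1 such gene. The neighbours described here were chosen after their values were seen. Next to apoeb lie apoa4b.2 on one side and apoc1 on the other. The gene apoa4b.2, of the apolipoprotein A4 group, had differences of 0.54 with benzene, 0.65 with toluene and -0.74 with formaldehyde, the same signs as apoeb, smaller with the aromatic compounds and close to the -0.86 of apoeb with formaldehyde. The gene apoc1 had 0.05 with benzene, -0.14 with toluene and 0.55 with formaldehyde. The gene apoa2, which lies 3 genes away, had -0.08, -0.31 and 0.50 in that order. Next to apoea lies apoa4a, with 0.12 with benzene, 0.27 with toluene and -0.19 with formaldehyde. A gene with only a clone name, which lies 5 genes from apoea, had 1.26 with benzene, 0.66 with toluene, -0.52 with formaldehyde and 4.90 with the BTF mix. The levels of this gene lay below the filter on every array but that of the mix, with 5.18 for DMSO. Those of apoa4a lay close to the filter on the same arrays, with 6.80 for DMSO.

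Of all genes past the level filter, 2.98% were at least 2-fold apart with benzene, 2.76% with toluene and 3.84% with formaldehyde. Beside these low shares, 0 of the other 12 measured apolipoprotein genes were at least 2-fold higher or lower with any single compound. Their medians were 0.22 with benzene, 0.16 with toluene and 0.10 with formaldehyde, against -0.01, 0.00 and -0.02 over the 6675 genes past the level filter. The widest of them were apoa4b.2, apodb at 0.58 with benzene and 0.74 with toluene, apoda.2 at 0.62 with benzene and apoc1. The genes that assemble, bind or digest lipoproteins were also within 2-fold on the single-compound arrays, in 8 of 8 cases past the filter. The vldlr receptor gene lay at -0.51 with benzene, -0.56 with toluene and -0.80 with formaldehyde, the lipase inhibitor gene angptl4 at 0.85 with toluene, and lrp1aa, a receptor that binds apolipoprotein E, at 0.53 with benzene, 0.48 with toluene and -0.53 with formaldehyde. Some of these values rest on levels below the filter: 6.54 for apodb and 6.57 for angptl4 with DMSO, and 6.86 for lrp1aa with formaldehyde.

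The haem carrier, antithrombin and tyrosine aminotransferase genes shared the pattern of apom, with formaldehyde high. The gene hpxa encodes hemopexin, which binds free haem in plasma, and had a level of 11.52 with benzene, 10.52 with toluene, 12.30 with formaldehyde, 14.14 with the BTF mix and 11.14 with DMSO. Formaldehyde was higher than DMSO by 1.16 and toluene lower, at -0.62, with benzene between them at 0.38 (-0.18 on the markers of other tissues). Toluene lay 1.00 below benzene for hpxa, just short of the 2-fold line.

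The gene serpinc1, which encodes antithrombin, the inhibitor of thrombin, had a level of 7.90 with benzene, 7.61 with toluene, 8.88 with formaldehyde, 10.08 with the BTF mix and 7.70 with DMSO. Benzene, toluene and DMSO lay close together and formaldehyde stood above them, by 1.18 over DMSO. The gene tat, for the enzyme that begins the breakdown of tyrosine, had a level of 7.27 with benzene, 7.38 with toluene, 8.94 with formaldehyde, 10.61 with the BTF mix and 7.79 with DMSO. Both aromatic compounds were below DMSO for tat, at -0.51 with benzene and -0.41 with toluene, and formaldehyde was above it by 1.15.

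The other clotting genes of the set, fgg and kng1, differed less. The gene fgg, for the gamma chain of fibrinogen, had a level of 10.69 with benzene, 10.13 with toluene, 10.97 with formaldehyde, 13.61 with the BTF mix and 10.13 with DMSO. Formaldehyde was again the highest single compound, at 0.84, and toluene had the level of DMSO. The other fibrinogen chains kept that order: fga differed by 0.03 with benzene, -0.38 with toluene and 0.53 with formaldehyde; fgb differed by 0.42 with benzene, -0.14 with toluene and 0.96 with formaldehyde.

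The gene kng1, for kininogen, from which bradykinin is cut in mammals, had a level of 9.002 with benzene, 8.59 with toluene, 9.14 with formaldehyde, 11.04 with the BTF mix and 9.48 with DMSO. It was below DMSO on all 3 single-compound arrays, by less than 2-fold, with toluene lowest at -0.89; centred on the markers of other tissues, formaldehyde had the opposite sign, 0.46. Each single compound was also set against the average of the other 2, and there kng1 lay at 0.14 with benzene and 0.34 with formaldehyde.

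**Figure D2:**
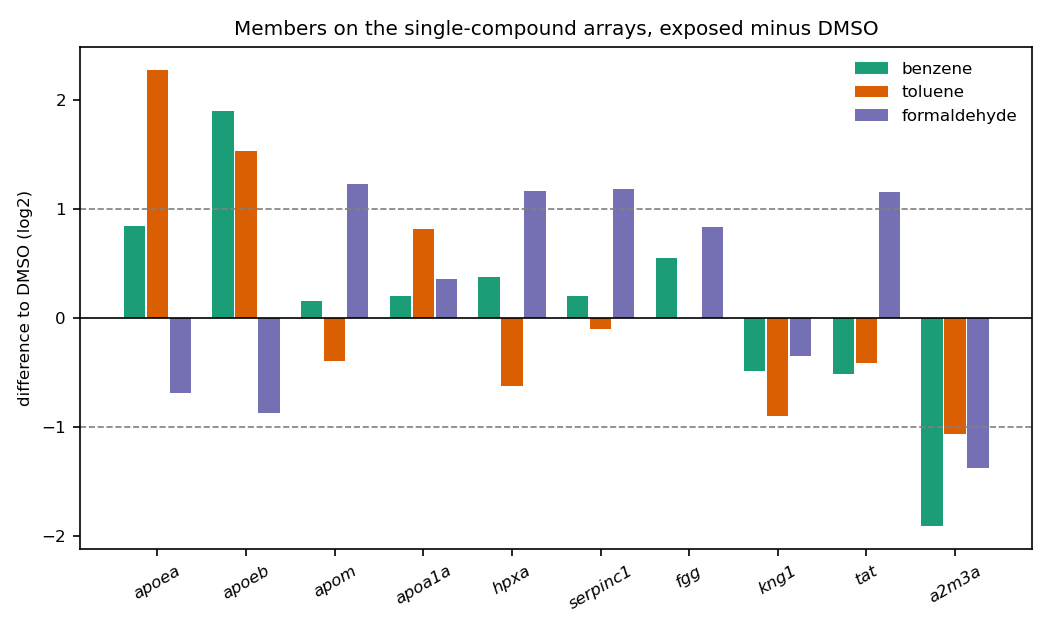
Difference to DMSO, in log2, of the 10 genes on the benzene, toluene and formaldehyde arrays; each bar is 1 array minus the DMSO array and dashed lines mark 2-fold. Toluene reaches 2.27 for apoea, formaldehyde lies between 1.15 and 1.23 for apom, hpxa, serpinc1 and tat, and all 3 bars of a2m3a are below -1. Centred on the hepatocyte markers, no gene passes 1 with formaldehyde and the a2m3a bar for toluene is at -0.76. The apoa1a bar for formaldehyde and the serpinc1 and fgg bars for toluene change sign there. Centred on the markers of other tissues, the a2m3a bar for formaldehyde is at -0.57. On that scaling the apoea and kng1 bars for formaldehyde and the apom, apoa1a, hpxa, serpinc1 and fgg bars for benzene change sign.

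Counted over the 10 genes, formaldehyde had 4 at least 2-fold higher than DMSO (apom, hpxa, serpinc1 and tat), none of them when centred on the hepatocyte markers, against 1.39% of all 6675 genes, and 1 at least 2-fold lower (a2m3a), against 2.44%. Toluene had 2 higher (apoea and apoeb), against 2.17%, and 1 lower (a2m3a), against 0.584%. Benzene had 1 higher (apoeb), against 1.99%, and 1 lower (a2m3a), against 0.989%. The genes were picked with such differences known, so these shares describe the set and say nothing of other liver genes. The medians over the 10 were 0.20 with benzene, -0.25 with toluene and 0.59 with formaldehyde. With toluene, apoa1a joined as the third gene at least 2-fold higher when centred on the hepatocyte markers, and a2m3a, at -0.76, was less than 2-fold lower. With formaldehyde a2m3a was less than 2-fold lower, at -0.57, when centred on the markers of other tissues. The 4 genes high with formaldehyde were not above DMSO with toluene, a pattern that 15 genes, or 0.225%, had. Across the 4 arrays without the mix, 7 of the 10 genes spanned at least 2-fold, against 8.84% of all genes, and the other 3 (apoa1a, fgg and kng1) spanned 0.81, 0.84 and 0.89.

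The count with formaldehyde moved with the scaling. The hepatocyte markers, none of which is one of the 10, had a median of 0.59 with formaldehyde, with 9 of 10 above 0, and their summed level was 15.10 with formaldehyde and 14.72 with DMSO, in log2. With each array centred on those markers, 0 of the 10 genes were at least 2-fold higher with formaldehyde; apom then lay at 0.65, serpinc1 at 0.60, hpxa at 0.58 and tat at 0.57, and 3 genes were at least 2-fold lower, among them apoea at -1.27 and apoeb at -1.45. Centred on the markers of other tissues, 6 of the 10 were at least 2-fold higher with formaldehyde, with apoa1a at 1.16 and fgg at 1.64 beside the 4. The summed level of the skin markers was 11.12 with formaldehyde and 13.17 with DMSO, that of the intestine markers 11.60 with formaldehyde and 12.95 with DMSO, and that of the exocrine pancreas markers 12.40 with formaldehyde and 15.60 with DMSO. The skeletal muscle markers went the other way, with a summed level of 17.15 with formaldehyde and 16.28 with DMSO, a median of 0.86 and 6 of 15 at least 2-fold higher. The part of these tissue shifts in the differences of the 10 genes was not tested.

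Lists of related liver genes, chosen like the 10 with earlier results known, held few 2-fold differences on the single-compound arrays. Of all 6675 genes, 2.98% were at least 2-fold apart with benzene, 2.76% with toluene and 3.84% with formaldehyde. Low counts in lists this short, here and below, are near these shares and are no result about the lists. Of 17 other clotting, fibrinolysis and protease inhibitor genes past the filter, 0 were at least 2-fold apart with any single compound, but their medians lay at 0.44 with formaldehyde, with 13 of 17 above 0, and at -0.36 with toluene, with 4 of 17 above 0. That formaldehyde median is smaller than the 0.58 by which centring on the hepatocyte markers lowers every formaldehyde difference, so its sign turns there. This is no separate check, since fga, fgb, ambp and itih2 are also among the hepatocyte markers. The widest of the 17 were vtnb (vitronectin) at 0.97, fgb at 0.96 and plg (plasminogen) at 0.81 with formaldehyde, and tfpia, an inhibitor of the tissue factor pathway, at -0.99. The tfpia value rests on levels below the filter, 5.30 with formaldehyde and 6.29 with DMSO, and its other probe set lay at 0.10. Plasminogen lay at -0.65 with toluene and 0.03 with benzene. The serine protease inhibitor serpina1l, an alpha-1-antitrypsin relative, lay at 0.39 with benzene, -0.72 with toluene and 0.47 with formaldehyde; it was named after its values were seen.

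Of 16 other plasma carriers and secreted proteins, 1 was at least 2-fold higher with benzene, selenop2 at 1.93, and 1 with toluene, the retinol carrier rbp4 at 1.00. The selenop2 value rests on a DMSO level of 5.52, below the filter, and a benzene level of 7.45. With formaldehyde selenop2 lay at 0.96. The medians of that list were -0.04 with benzene, -0.24 with toluene and 0.18 with formaldehyde. The insulin-like growth factor carrier igfbp1a lay at 0.89 with benzene, -0.75 with toluene and 0.82 with formaldehyde. Its relative igfbp1b lay at -0.93 with toluene, with a toluene level of 6.79, below the filter. Hemopexin's second gene, hpxb, had -0.01 with benzene, -0.80 with toluene and 0.02 with formaldehyde. All hpxb levels behind these values, such as 5.93 with toluene and 6.73 with DMSO, lay below the filter. It passed the filter only on the mix array, which limits any comparison with hpxa.

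Among 18 other amino acid breakdown and urea genes, none was 2-fold higher with a single compound and 1, ass1, was at least 2-fold lower, at -1.04 with formaldehyde. Both ass1 levels behind that value, 5.20 with formaldehyde and 6.24 with DMSO, lay below the filter, which the gene passed only on the mix array. Of the enzymes that follow tyrosine aminotransferase in tyrosine breakdown, those past the filter shared the sign of tat with formaldehyde at a smaller size: hpda lay at 0.65 and hgd at 0.79, beside 1.15 for tat. With toluene they lay at -0.26 and -0.25, beside -0.41 for tat. The hpda value is no separate check, since hpda is also among the hepatocyte markers, whose median with formaldehyde was 0.59. The last enzyme, fah, below the filter on all arrays, lay at -0.06 with formaldehyde and 0.04 with toluene. The transaminase gene agxta lay at 0.61 with formaldehyde, with a DMSO level of 6.96, just under the filter. Few liver transcription factors reached the level filter, 5 of 11 measured. Of these, cebpa lay at -0.95 with formaldehyde and 0.81 with benzene, and cebpb at 0.62 with both aromatic compounds. The gene nr0b2a lay at 1.28 with toluene, and hnf4b at -0.34 with formaldehyde. The cebpa level with DMSO, 7.015, was just under the filter, and that with formaldehyde, 6.07, was below it. Also below it were nr0b2a with DMSO, at 6.52, and hnf4b with formaldehyde and DMSO, at 4.77 and 5.11. The gene hnf4b passed the filter only on the mix array.

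The tyrosine aminotransferase gene is a classical target of glucocorticoids in mammalian liver. Among the single compounds, the median of a list of glucocorticoid response genes was highest with toluene, though not every gene was. The part of glucocorticoids in the tat values was not tested. Past the filter were 8 glucocorticoid response genes, of which 6 were higher with toluene by 2-fold or more, against 2.17% of all genes. The median of the 8 was 1.57. Among the 6 were cebpd at 2.14, klf9 at 2.01, pck1 at 1.97 and fkbp5 at 1.92, while tat lay at -0.41 with toluene. Another of the 6, pdk2b at 1.00, rests on levels below the filter, 6.13 with toluene and 5.13 with DMSO. The gene sgk1 went the other way, at -0.95 with toluene. Both pdk2b and sgk1 were named after their values were seen. With DMSO 3 of the 8 genes lay below the filter. The other probe set of cebpd, below the level filter, lay at -0.07. With formaldehyde, where tat lay at 1.15, fkbp5 lay at 0.88 and klf9 at 0.92, and the list median was 0.40 with 0 of 8 at least 2-fold higher. With the BTF mix 7 of the 8 were at least 2-fold higher as deposited, against 23.2% of all genes, with a median of 4.43. Of these, pdk2b passed the filter only through the mix array. The gene tat was higher with the mix too, by 2.83. Acute phase and inflammation genes, a group in which fibrinogen and hemopexin are often counted, had medians of 0.28 with benzene, -0.29 with toluene and -0.12 with formaldehyde. Of those 12 genes, 4 were at least 2-fold lower with formaldehyde, against 2.44% of all genes. They included irg1l at -2.10, cfd at -1.94 and isg15 at -1.43. This was not particular to formaldehyde for irg1l, at -1.03 with benzene and -1.71 with toluene, or for isg15, at -0.79 and -1.77. Levels of irg1l and isg15 lay below the filter on every single-compound array, such as 5.55 and 6.05 with formaldehyde. In contrast, cfd was at least 2-fold higher with both aromatic compounds, and socs3a was higher by 1.29 with benzene and 1.88 with toluene. The socs3a level with DMSO, 6.71, lay below the filter.

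Toluene differs from benzene by a methyl group, and formaldehyde is an aldehyde with no ring. With unknown doses, the values below are given next to each other with no claim about potency. Between toluene and benzene, 1 of the 10 genes was at least 2-fold higher with toluene (apoea, by 1.43), against 1.17% of all genes, and 0 were at least 2-fold lower, against 0.434%. Between formaldehyde and toluene, 4 were higher with formaldehyde, against 0.989%, and 2 were lower, against 3.96%. The 4 were apom by 1.62, hpxa by 1.78, serpinc1 by 1.28 and tat by 1.56, and the 2 were apoea at -2.96 and apoeb at -2.39. Centred on the hepatocyte markers, formaldehyde and toluene lay less than 2-fold apart for each of the 4. Against DMSO, apom then lay at 0.65 with formaldehyde and -0.10 with toluene, hpxa at 0.58 and -0.32, serpinc1 at 0.60 and 0.20, and tat at 0.57 and -0.11. On that scaling apoa1a, at -0.23 and 1.11, and a2m3a, at -1.96 and -0.76, joined the lower genes. Between formaldehyde and benzene, apom and tat were higher by 1.07 and 1.66, against 1.21%, and apoea and apoeb were lower, at -1.54 and -2.76, against 4.13%. On the hepatocyte markers apom, at 0.65 with formaldehyde and 0.31 with benzene, and tat, at 0.57 and -0.36, were less than 2-fold apart. On the markers of other tissues so was apoea, at 0.12 with formaldehyde and 0.29 with benzene.

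The profiles over the 3 single compounds were set beside the median profile of each of 11 marker lists, with the Euclidean distance between the 3 log2 differences as the measure; this was done after seeing the data and is a description. The nearest list was the intestine for apoea, at a distance of 1.02, and the skin for apoeb, at 0.97. For both genes the hepatocyte list was the farthest of the 11, at 2.93 for apoea and 2.99 for apoeb. The nearest list was the hepatocyte for apom (0.70), hpxa (0.83) and tat (0.76). Skeletal muscle was nearest for serpinc1 (0.47), fgg (0.47) and apoa1a (0.76), with the hepatocyte list second for serpinc1, at 0.65, and for fgg, at 0.69, while for apoa1a it lay farther off, at 1.07. For kng1 the testis list of 4 genes was nearest, at 0.77, and the hepatocyte list lay at 1.24. The skin medians were 1.26 with benzene, 1.22 with toluene and -1.52 with formaldehyde. The intestine medians were 0.62, 1.37 and -1.11 in that order.

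Macrophages and microglia, in which apoeb is also expressed, had a median of 0.29 with benzene, 0.11 with toluene, and -0.76 with formaldehyde over 10 genes past the filter. The summed level of all 13 measured macrophage markers was 14.80 with benzene, 14.67 with toluene, 14.42 with formaldehyde, 14.60 with the BTF mix and 14.59 with DMSO, and most of that sum is ctss2.1 on every array but that of the mix, where its difference was -3.16. The invariant chain gene cd74a lay at 0.49 with benzene, 0.81 with toluene and -1.81 with formaldehyde, while the macrophage receptor gene marco lay at 0.01, -0.23 and -0.68. The marker mfap4.5 lay below DMSO on all 3 arrays, at -1.88, -1.62 and -1.15 in that order; marco and mfap4.5 were chosen after their values were seen. Of the 13 markers, 7 lay below the level filter on the DMSO array. Among these, csf1ra was below it on all 5 arrays and marco on every array but that of the mix. The part of these cells in the apoeb values was not tested.

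By single genes over all 4 differences, the gene nearest to hpxa was apom, at a distance of 0.35. Nearest to apom were the lens crystallin genes crygs2 (0.22) and crygm2c (0.34), and crygs2 (0.42) came second for hpxa. Nearest to tat were crygm2f (0.44) and upp2 (0.51). The gene nearest to apoea was the transcription factor klf2a, at 0.46, with differences of 1.19 with benzene, 2.44 with toluene, -0.53 with formaldehyde and 4.16 with the BTF mix; wu:fa56d06 (0.62) came second. Nearest to apoeb were wu:fb18f06 (0.44) and si:ch211-76l23.4 (0.51). The coagulation factor gene f7i (0.54) and spock3 (0.58) were nearest to kng1. For serpinc1 the nearest were mllt11 (0.22) and eef2l2 (0.35), for fgg pdcb (0.29) and diabloa (0.29), and for apoa1a si:ch73-141c7.1 (0.33) and syngr2a (0.34). The genes nearest to a2m3a, si:dkeyp-46h3.2 and chia.4, were farther off, at 1.72 and 1.83. With 4 differences that share the DMSO array, many genes lie close together by this measure.

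With the BTF mix, 9 of the 10 genes were at least 2-fold higher than with DMSO, against 23.2% of all genes, and 1 was at least 2-fold lower, against 35.8%; centred on the markers of other tissues, 0 were at least 2-fold higher and apom, apoa1a, hpxa, serpinc1, kng1 and tat had the opposite sign. The differences as deposited ran from 1.55 for kng1 to 3.95 for apoea, with 3.84 for apoeb, 3.48 for fgg, 3.01 for hpxa, 2.87 for apom, 2.83 for tat, 2.37 for serpinc1 and 2.35 for apoa1a. All 9 were also at least 2-fold above each of the other 4 arrays, against 20.3% of all genes, by a margin of 1.19 for serpinc1 to 2.64 for fgg. The median of all genes was -0.36 with the mix.

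As deposited, most marker genes of the other tissues past the filter were higher with the mix too, apart from those of oocytes, of the liver under oestrogen and of testis (4 genes, median -0.28). The hepatocyte markers had a median of 2.05, the skin markers 3.18, the erythrocyte markers 2.88 and the intestine markers 2.80. The macrophage markers had 2.59, the exocrine pancreas markers 2.49, the brain markers 2.28 and the skeletal muscle markers 1.80. The filter takes the highest of the 5 arrays, so a marker can pass it through the mix array alone, which can raise these medians. Below the filter with DMSO were 6 of 8 measured erythrocyte, 6 of 12 brain, 7 of 13 macrophage and 7 of 15 skin markers. The same held for 4 of 12 intestine, 1 of 16 exocrine pancreas, 1 of 15 skeletal muscle and 0 of 10 hepatocyte markers. Centred on the hepatocyte markers, 3 genes remained at least 2-fold higher with the mix, and kng1 lay at -0.81 and apoa1a at -0.01. Among related liver genes as deposited, 10 of 12 other apolipoprotein and 14 of 17 clotting and inhibitor genes were at least 2-fold higher with the mix. So were 12 of 16 carrier and 14 of 18 amino acid breakdown genes. Some, such as hpxb (6.73 with DMSO, 10.21 with the mix), passed the filter only through the mix array, which can raise these counts. In that order, 3 of 12, 5 of 20, 4 of 17 and 7 of 20 measured genes lay below the filter with DMSO. At least 2-fold lower with the mix were a2m3b at -6.57, gldc at -1.55, pon2 at -1.32 and sardh at -1.30, named after their values were seen. Near 0 were tfa (transferrin), at 0.03, and apoda.2, at -0.06. The lipoprotein assembly, receptor and lipase genes were split, with 4 of 8 higher and 4 of 8 lower by 2-fold or more, the lower ones including the high-density lipoprotein receptor gene scarb1 at -4.64 and the lipase gene lipg at -2.77.

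**Figure D3:**
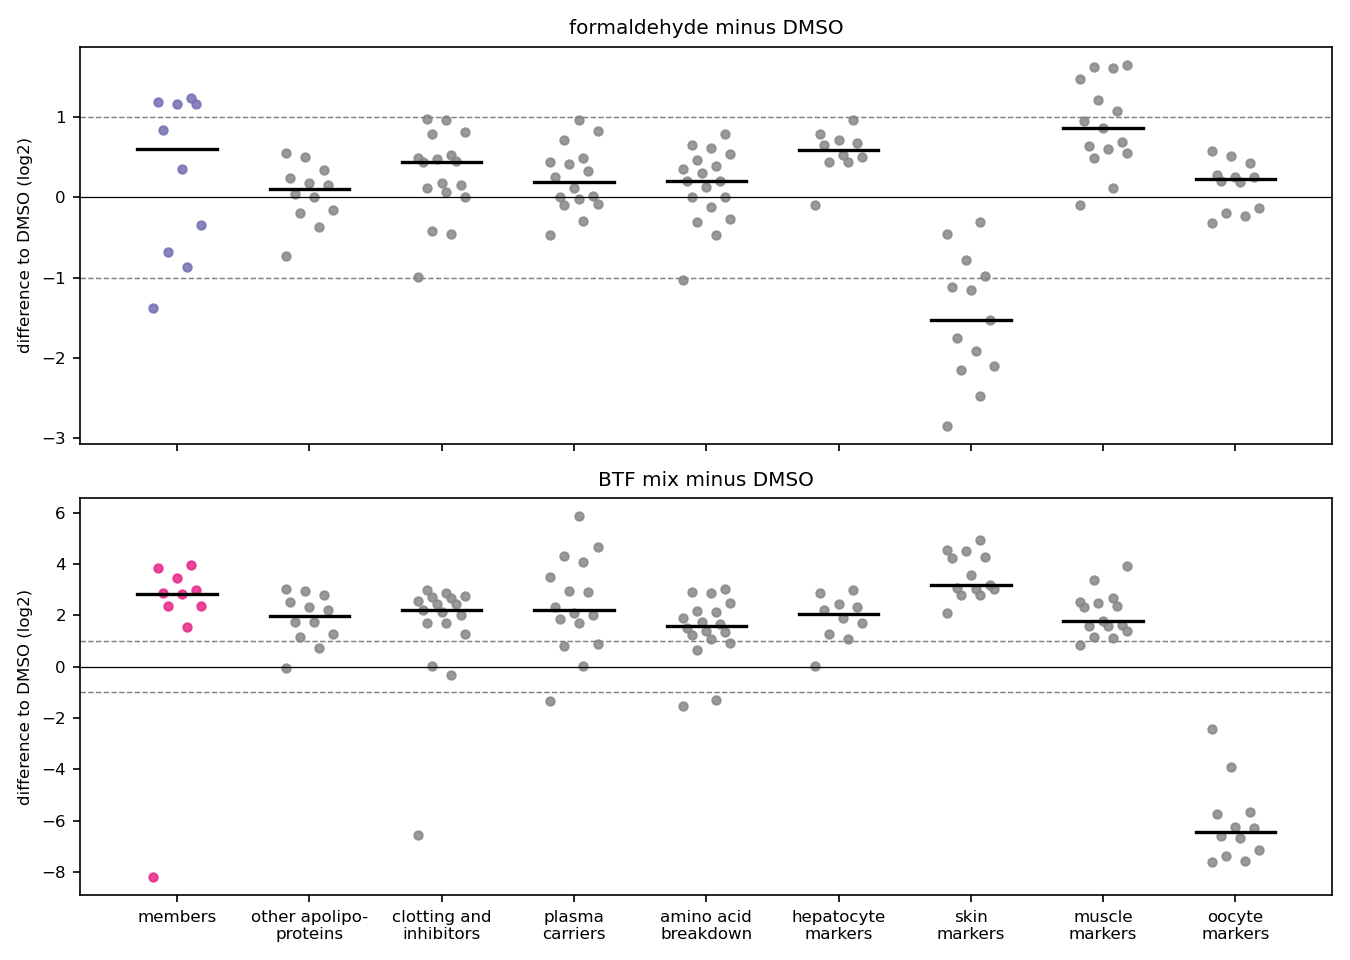
Difference to DMSO, in log2, with formaldehyde (upper panel) and the BTF mix (lower panel) for the 10 genes (coloured), related liver lists and markers of 4 cell types; each point is 1 gene past the level filter, the bar is the median and dashed lines mark 2-fold. As deposited, the 10 genes have a median of 0.59 with formaldehyde and 2.85 with the mix, beside 0.59 and 2.05 for the hepatocyte markers; centred on those markers the medians of the 10 are 0.01 and 0.49, and centred on the markers of other tissues the mix median is -0.37.

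**Figure D4:**
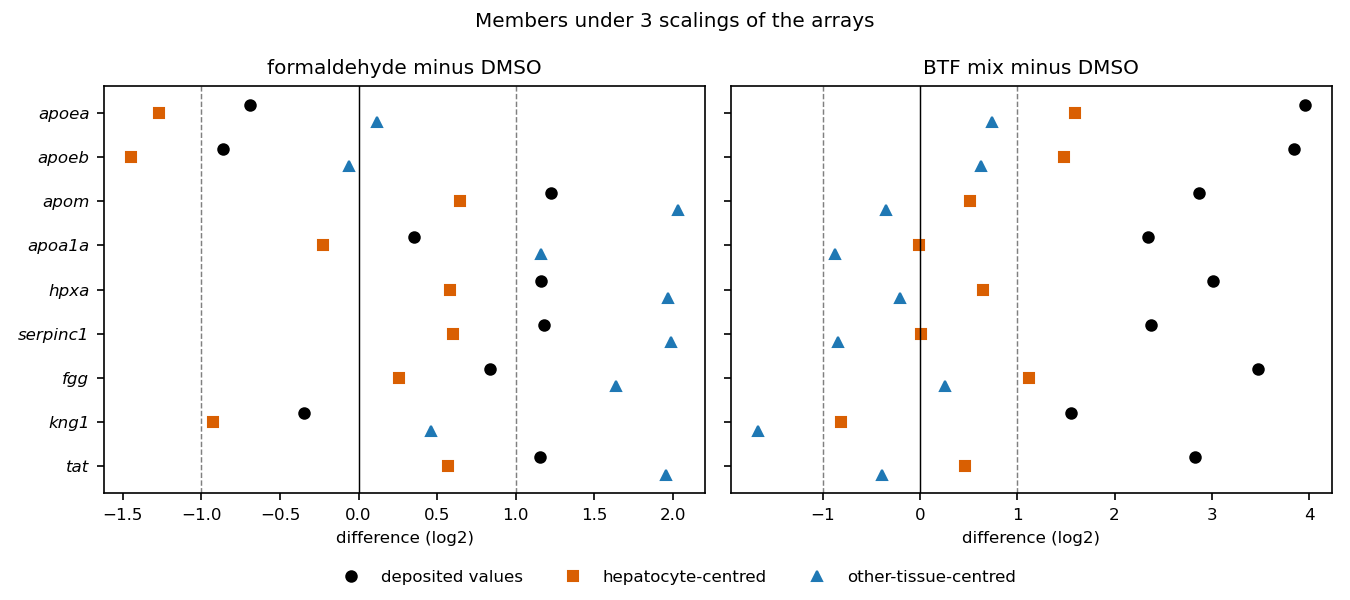
Difference to DMSO, in log2, with formaldehyde (left) and the BTF mix (right) for 9 genes, without a2m3a, under 3 scalings of the arrays; each point is 1 gene, and dashed lines mark 2-fold. With the mix, apom, apoa1a, hpxa, serpinc1, kng1 and tat lie above 0 as deposited and below 0 when centred on the markers of other tissues, and kng1 and apoa1a also lie below 0 when centred on the hepatocyte markers; with formaldehyde, apoea and kng1 turn above 0 on the markers of other tissues and apoa1a below 0 on the hepatocyte markers.

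The gene a2m3a was low on the mix array, unlike the other members and the hepatocyte markers. The markers of the liver under oestrogen were low there too, with a median of -5.60, as were the oocyte markers, with -6.44. The tissue that the a2m3a RNA came from was not tested. This gene belongs to the alpha-2-macroglobulin family, whose plasma members trap proteases in mammals. Its representative probe set had a level of 11.58 with benzene, 12.42 with toluene, 12.10 with formaldehyde, 5.28 with the BTF mix and 13.48 with DMSO, and the other one had 11.54, 12.30, 11.77, 5.35 and 13.50 in that order. The BTF mix array was the low one, by -8.20 and -8.15 against DMSO; its values were under the level filter, near the low end of the scale, so no exact fold is given. The DMSO array was the high one: both probe sets were at least 2-fold above each of the 4 exposed arrays, as were 0.165% of 9716 probe sets.

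With the single compounds the a2m3a differences were -1.90 (benzene), -1.06 (toluene) and -1.38 (formaldehyde) on the representative probe set and -1.96, -1.20 and -1.73 on the other one. Each rests on the 1 DMSO array: against the mean of the other single-compound arrays, toluene lay at 0.58 and formaldehyde at 0.10, the opposite sign, and benzene at -0.69. Against DMSO, toluene lay at -0.76 when centred on the hepatocyte markers, and formaldehyde at -0.57 when centred on the markers of other tissues. Oocyte markers did not move that way with the single compounds, with medians of -0.01, 0.06 and 0.22 in the order benzene, toluene and formaldehyde. Over all 4 differences the oocyte list was the nearest marker profile to a2m3a, at a distance of 3.24. The list of the liver under oestrogen came second, at 3.93, and the hepatocyte list lay at 10.63. Over the 3 single compounds the testis list was nearest, at 2.199, and the oocyte list lay at 2.71, the hepatocyte list at 2.83 and that of the liver under oestrogen at 2.95.

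Relatives of a2m3a, named after their values were seen, differed among themselves. In the RefSeq order a2m3d lies next to a2m3a, but its 2 probe sets lay below the level filter on all arrays. The gene a2m3g lies 3 genes from a2m3a; its probe sets had levels between 12.21 and 12.93 on the single-compound arrays, 5.27 and 6.30 with the mix, and 13.03 and 13.49 with DMSO. The gene a2m3b had 12.87 with benzene, 12.83 with toluene, 12.78 with formaldehyde, 6.62 with the BTF mix and 13.20 with DMSO. The gene a2m2h had 9.08 with benzene, 8.60 with toluene, 10.25 with formaldehyde, 11.30 with the BTF mix and 9.10 with DMSO, so it was higher with the mix by 2.19 and with formaldehyde by 1.15, and lower by 0.50 with toluene, the signs of hpxa on those 3 arrays. The gene a2m2f was also higher with the mix, by 3.35, but it passed the level filter only on the mix array, with 5.79 for DMSO. Close relatives share sequence, and on Affymetrix arrays the ending x_at marks probe sets with probes that may pick up transcripts of such relatives, so the values of a2m3a and a2m3g may not be separate.

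**Figure D5:**
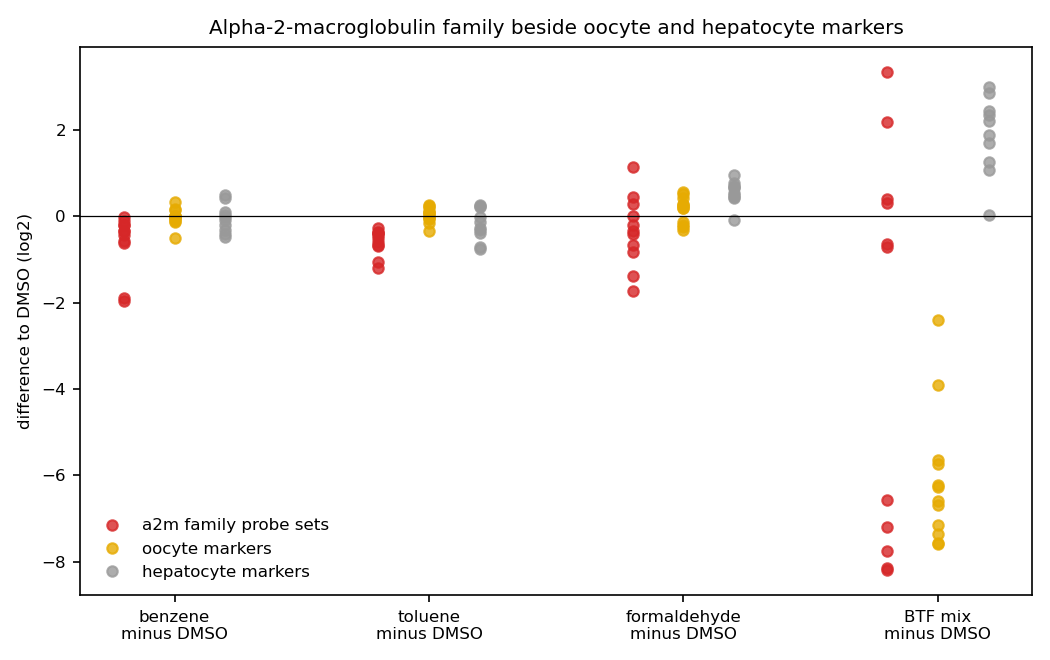
Difference to DMSO, in log2, of the probe sets of the alpha-2-macroglobulin family (red), the oocyte markers (yellow) and the hepatocyte markers (grey) on the benzene, toluene, formaldehyde and BTF mix arrays; each point is 1 probe set. With the mix the probe sets of a2m3a, a2m3b and a2m3g lie between -8.20 and -6.57, beside oocyte markers whose lowest is -7.60, while a2m2h lies at 2.19, within the hepatocyte markers, and a2m2f at 3.35, above the highest of them, 2.99. The level of a2m2f is below the level filter on every array but that of the mix.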

How the data were processed

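The authors deposited log2 values, 1 per probe set and array; the log base was taken from the range of 3.15 to 15.04. The tools listed in the submitters' processing notes are Affymetrix Expression Console 1.1, MAS5 and RMA, with no role given. Array medians lay between 6.98 and 7.06. Bringing arrays to a common level can lift all other signals on an array that lacks abundant transcripts, and whether this happened here was not tested. Control probe sets (115) were left out of 15617; of the other 15502, 10795 had 1 symbol, 135 several and 4572 none, and 10711 were matched to RefSeq (GRCz12tu) by Entrez identifier to update symbols. The probe set of highest mean stood for a gene, and probe sets entered counts where their highest value reached 7.02 (9716 probe sets, 6675 genes). Signal over background is not given per probe set, and the number of arrays limits the precision.

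Values were computed with Python 3.11.15 and pandas 2.3.3, and loess normalization with limma 3.58.1; the counting step was tested on simulated data. The members and gene lists were chosen with earlier results of these data known. Named were all members, the 4 list genes with the largest single-compound difference, up to 3 genes per marker list and the 2 nearest genes of each member; genes outside this rule are marked as such or stand beside a member as its neighbour, partner or marker. Lists share some genes. No sequences are shown.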

Additional observations from a re-analysis of the deposited data

Results flagged for a closer look

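Of the 10 genes, apoea, apoeb, hpxa and kng1 had differences to DMSO, as deposited, of 1.5-fold or more in opposite directions on 2 arrays. Each condition has 1 array, so the gaps were not tested. For apoea, benzene lay 1.54 and toluene 2.96 above formaldehyde, and formaldehyde minus the BTF mix was -4.64. For apoeb, benzene lay 2.76 and toluene 2.39 above formaldehyde, and formaldehyde minus the BTF mix was -4.71. For hpxa, toluene minus formaldehyde was -1.78 and toluene minus the BTF mix -3.63. For kng1, the direction differed between toluene and the BTF mix, at -2.45. Some of these opposite signs were lost under other scalings. Centred on the hepatocyte markers, kng1 lay at -0.59 with toluene and -0.81 with the mix. Centred on the markers of other tissues, kng1 lay at -1.39 and -1.66. There hpxa lay at -1.12 with toluene and -0.21 with the mix, but at 1.97 with formaldehyde. The apoea differences were all positive on that scaling, with formaldehyde at 0.12.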

How the results depend on the processing

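No paired analysis was possible because each condition had 1 array. Of 390 single-gene differences under other settings, 284 moved by less than the median gap between probe sets of a gene (0.18 with benzene and toluene, 0.19 with formaldehyde, 0.55 with the mix), 96 moved by more and 10 turned sign after being at least 2-fold. Quantile normalization, with or without the mix, cyclic loess and centring on detected probe sets left each count of the 10 genes as it was. So did both other level filters and averaging a gene's probe sets, but this was largely fixed in advance. All 11 probe sets pass either filter, so the 40 differences under each filter are the main values and count among the 284 by construction. Averaging can change only a2m3a, so the differences of the other genes there are also the main values. Centring on detected probe sets moves every gene of an array by the same amount. This was 0.04 with benzene, 0.01 with toluene, 0.06 with formaldehyde and 0.38 with the mix. Each is under the gap, so those 40 differences count among the 284 together. Centring on the hepatocyte markers moved the median of all genes by 0.15 with benzene, 0.30 with toluene, -0.58 with formaldehyde and -2.36 with the mix, and gave 3 genes higher and 0 lower with toluene (median 0.0545), 0 higher and 3 lower with formaldehyde (median 0.0136), 3 higher with the mix (median 0.49), apoa1a at -0.0099 and kng1 at -0.81. Centring on the markers of other tissues, added after seeing the data, moved it by -0.56, -0.50, 0.81 and -3.22 and gave 3 lower with benzene (median -0.36), 3 lower with toluene (median -0.74), 6 higher and 0 lower with formaldehyde (median 1.40), and 0 higher and 2 lower with the mix (median -0.37), where apom lay at -0.35, apoa1a at -0.87, hpxa at -0.21, serpinc1 at -0.84, kng1 at -1.66 and tat at -0.39. These shifts follow from subtracting the list's own median. With every probe set counted, a2m3a counts as 2 in each lower count, and the formaldehyde median was 0.35. At 1.5-fold, 2 genes were higher with benzene and 3 lower with toluene and with formaldehyde. Against the mean of the other single-compound arrays, 0 were lower with benzene (median -0.10), 2 lower with toluene (median -0.59), 2 lower with formaldehyde, and a2m3a lay at 0.58 with toluene and 0.10 with formaldehyde. Depth does not apply to arrays, and a2m3a with the mix lies near the low end of the scale.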
